A study of Mus musculus with 8 samples.

Results

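Genes of the kidney proximal tubule were followed in ribosome-bound RNA that was captured from kidney endothelium. The set holds 39 genes that were listed by name, and all 39 were found among the 23930 amplicons of the targeted panel. They comprise 4 sugar carriers, 5 carriers of phosphate, sulfate, carboxylates and lactate, 5 amino acid carriers, 8 carriers of organic anions, cations and urate, 2 acid-base carriers, 3 endocytic receptors and scaffolds, 9 enzymes and lipid uptake proteins, 2 secreted or lysosomal proteins and 1 transcription factor. In mice of every group, translating ribosome affinity purification (TRAP) was applied, in which a ribosomal protein (EGFP/Rpl10a) is tagged by the tamoxifen-inducible, endothelium-specific cdh5-CreERT2 driver and the tagged ribosomes are pulled down with their RNA. The 4 groups were SOCS3iKEO mice given LPS (n = 2), SOCS3iKEO mice given saline (n = 1), WT mice given LPS (n = 3) and WT mice given saline (n = 2). LPS was injected once into the peritoneum as 250 µg in 250 µl, controls received 250 µl of sterile saline, and kidneys were taken after 14 h. The labels do not spell out SOCS3iKEO, and they give neither age nor sex for any mouse. Each library is 1 mouse.

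The proximal tubule is the first segment of the nephron and takes back most of the glucose, amino acids, phosphate, bicarbonate and filtered protein that enter it. It does so with carriers of the solute carrier (Slc) families that are driven by the sodium gradient, and with the endocytic receptors megalin (Lrp2) and cubilin (Cubn). It also secretes organic anions and cations and makes glucose. In endotoxaemia, loss of these transport and metabolic transcripts is a known feature of tubule injury.

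Libraries held 7093794 to 14877519 reads, so 3 reads, used here as the floor of detection, correspond to 0.202 to 0.423 RPM (reads per 1000000 panel reads). PCR reads without molecular identifiers were counted, so this floor covers counting error only. The amplicon of Socs3, an inhibitor of cytokine signalling and the gene whose symbol the genotype name holds, gave 2.37 and 1.77 RPM in the SOCS3iKEO LPS mice, 0.282 in the SOCS3iKEO saline mouse, 9.88, 1.26 and 2.36 in WT mice given LPS, and 0.631 and 0.202 in WT mice given saline, so the genotypes overlapped. The amplicon's position within Socs3 is not given in the sources used here, so these values do not check the genotype labels. Scaling factors (trimmed mean of M values, TMM) were 0.671 and 0.709 in SOCS3iKEO LPS and 0.994 to 1.26 in the other 6 libraries. Reads of 4 Y-linked genes numbered 3320 to 3987 in WT LPS replicates 2 and 3 and WT saline replicate 2, and 1 to 3 in the 3 SOCS3iKEO libraries, WT LPS replicate 1 and WT saline replicate 1, the libraries written here as without Y-linked reads. The mouse numbers in the labels formed 2 runs, with SOCS3iKEO LPS and WT saline in one and SOCS3iKEO saline and WT LPS in the other. Each comparison between groups therefore also compares these runs, and the 2 cannot be told apart.

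The proximal tubule signal was lowest in WT LPS on the deposited scale. The 39 genes summed to 4401 and 3089 RPM in the SOCS3iKEO LPS mice, 3102 in the SOCS3iKEO saline mouse, 1385, 1746 and 2375 in WT mice given LPS, and 3257 and 2966 in WT mice given saline. All 3 WT LPS libraries lay below all others, and the first SOCS3iKEO LPS library lay above all others while the second lay among the saline libraries. After TMM scaling the sums were 6556 and 4357 in the SOCS3iKEO LPS mice, 2489 in the SOCS3iKEO saline mouse, 1393, 1637 and 2357 in WT mice given LPS, and 2580 and 2374 in WT mice given saline. The SOCS3iKEO LPS libraries then stood above every other library. In these bulk captures, fewer tubule cells and less RNA per cell cannot be told apart.

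**Figure D1:**
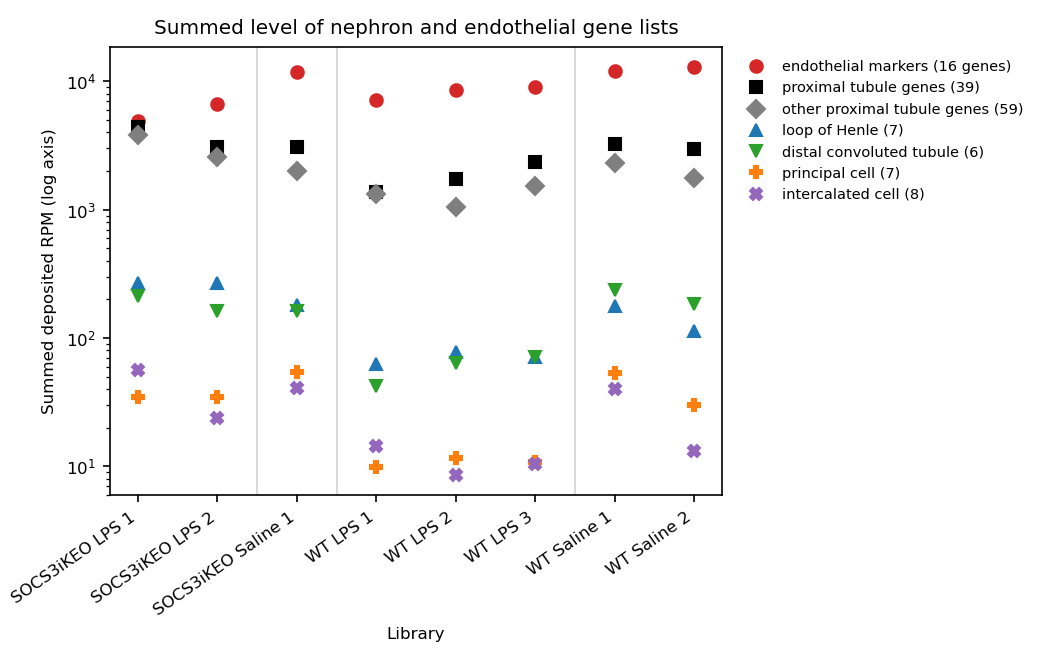
Summed deposited RPM (log axis) of 7 gene lists in each of the 8 libraries, with 1 point per list and library. The 39 proximal tubule genes (black squares) and the 59 other proximal tubule genes (grey diamonds) sit lowest in the 3 WT LPS libraries. The endothelial markers (red circles) sit lowest in the 2 SOCS3iKEO LPS libraries, at 4935 and 6650 RPM. After TMM scaling the order of the 39 genes holds narrowly, while the orders of the 59 genes and of the endothelial markers do not hold.

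Endothelial markers, 16 genes such as Pecam1 and Cdh5, summed to 4935 and 6650 RPM in the SOCS3iKEO LPS mice, 11860 in the SOCS3iKEO saline mouse, 7210, 8637 and 9059 in WT mice given LPS, and 12140 and 12860 in WT mice given saline. After TMM scaling these sums were 7352 and 9380 in the SOCS3iKEO LPS mice, 9518 in the SOCS3iKEO saline mouse, 7250, 8096 and 8987 in WT mice given LPS, and 9617 and 10290 in WT mice given saline, so SOCS3iKEO LPS and WT LPS overlapped. The markers did not move as a block, since as many were called higher as lower in SOCS3iKEO LPS against WT LPS, as counted below. Among those higher was Cdh5, the endothelial cadherin, with 1494 and 1921 scaled RPM in SOCS3iKEO LPS, against 313 to 369 in WT LPS. Its log2 fold change was 2.31 ± 0.20 (SE, limma's adjusted p = 9.46e-05). Relative to the proximal tubule sum, the endothelial sum was 112% and 215% in the SOCS3iKEO LPS mice, 382% in the SOCS3iKEO saline mouse, 520%, 495% and 381% in WT mice given LPS, and 373% and 434% in WT mice given saline. Another list of 59 proximal tubule genes summed to 3803 and 2580 RPM in the SOCS3iKEO LPS mice, 2001 in the SOCS3iKEO saline mouse, 1326, 1045 and 1530 in WT mice given LPS, and 2296 and 1765 in WT mice given saline. Lists of the loop of Henle (7 genes), distal convoluted tubule (6) and principal cell (7) were likewise lowest in the 3 WT LPS libraries, while intercalated cell genes (8) overlapped between WT LPS and WT saline. The loop genes summed to 268 and 268 RPM in the SOCS3iKEO LPS mice, 179 in the SOCS3iKEO saline mouse, 63.0, 78.4 and 71.7 in WT mice given LPS, and 178 and 114 in WT mice given saline. Podocyte markers (7 genes) summed to 86.6 and 195 RPM in the SOCS3iKEO LPS mice, 112 in the SOCS3iKEO saline mouse, 243, 371 and 332 in WT mice given LPS, and 130 and 110 in WT mice given saline, so they were highest in WT LPS on the deposited scale. After TMM scaling SOCS3iKEO LPS replicate 2, at 275, lay above WT LPS replicate 1, at 244. Neutrophil markers (5 genes) were low but higher after LPS, at 27.8 and 14.2 RPM in the SOCS3iKEO LPS mice, 0.282 in the SOCS3iKEO saline mouse, 7.62, 4.00 and 8.998 in WT mice given LPS, and 0.911 and 0.604 in WT mice given saline. All 3 that could be tested, S100a8, S100a9 and Retnlg, were called higher in SOCS3iKEO LPS than in WT LPS and than in SOCS3iKEO saline, and their part in the results was not tested. Other markers summed to at most 49.8 RPM for fibroblasts (6 genes), 32.9 for mural and renin cells (7), 21.4 for macrophages (8) and 0.846 for lymphocytes (5). No library of unbound or whole-kidney RNA was analysed here, so enrichment over the kidney was not measured, and the part of tubule RNA carried along in the captures was not tested. The series' design text describes removal of EpCAM and CD45 cells and capture of CD31 cells before DNA isolation, and the sources used here do not say whether the RNA captures had such a step.

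Most of these genes differed between SOCS3iKEO and WT after LPS. A gene was called higher or lower where limma's adjusted p was below 0.05, and all 39 genes passed the filter on low counts. Of the 39 genes, 29 were higher in SOCS3iKEO LPS and 1 was lower, against 24.0% higher and 26.7% lower among the 12820 amplicons tested. The median log2 fold change of the 39 was 1.61, against -0.04 over all amplicons tested. For 32 genes both SOCS3iKEO LPS libraries lay above all 3 WT LPS libraries after scaling, and for 1 they lay below. The same separation was not counted over all amplicons, so these numbers cannot be set against the panel. Of the 29 calls, 22 held when any 1 library was left out, and the count ranged from 24 to 32. On the deposited scale, where the median of all amplicons was -0.45, 24 were called higher and 1 lower, given without a percent of all amplicons. Scaled instead to the other proximal tubule list, where the median of all amplicons was -1.48, 9 were higher and 5 lower, so the directions given by role below hold on the TMM scale. Other nephron lists moved with the set, with 46 of 58 tested genes of the other proximal tubule list higher and 0 lower, 7 of 8 intercalated cell genes, 6 of 7 principal cell genes, 5 of 6 distal convoluted tubule genes and 4 of 7 loop genes higher, and their part in the result was not tested. Of 7 genes listed as tubule injury markers, Havcr1, Krt20, Sox9, Spp1, Cdh6, Vcam1 and Clu, 5 were higher. Which cells in the captures gave these transcripts was not tested. Among 16 endothelial markers 4 were higher and 4 lower.

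**Figure D2:**
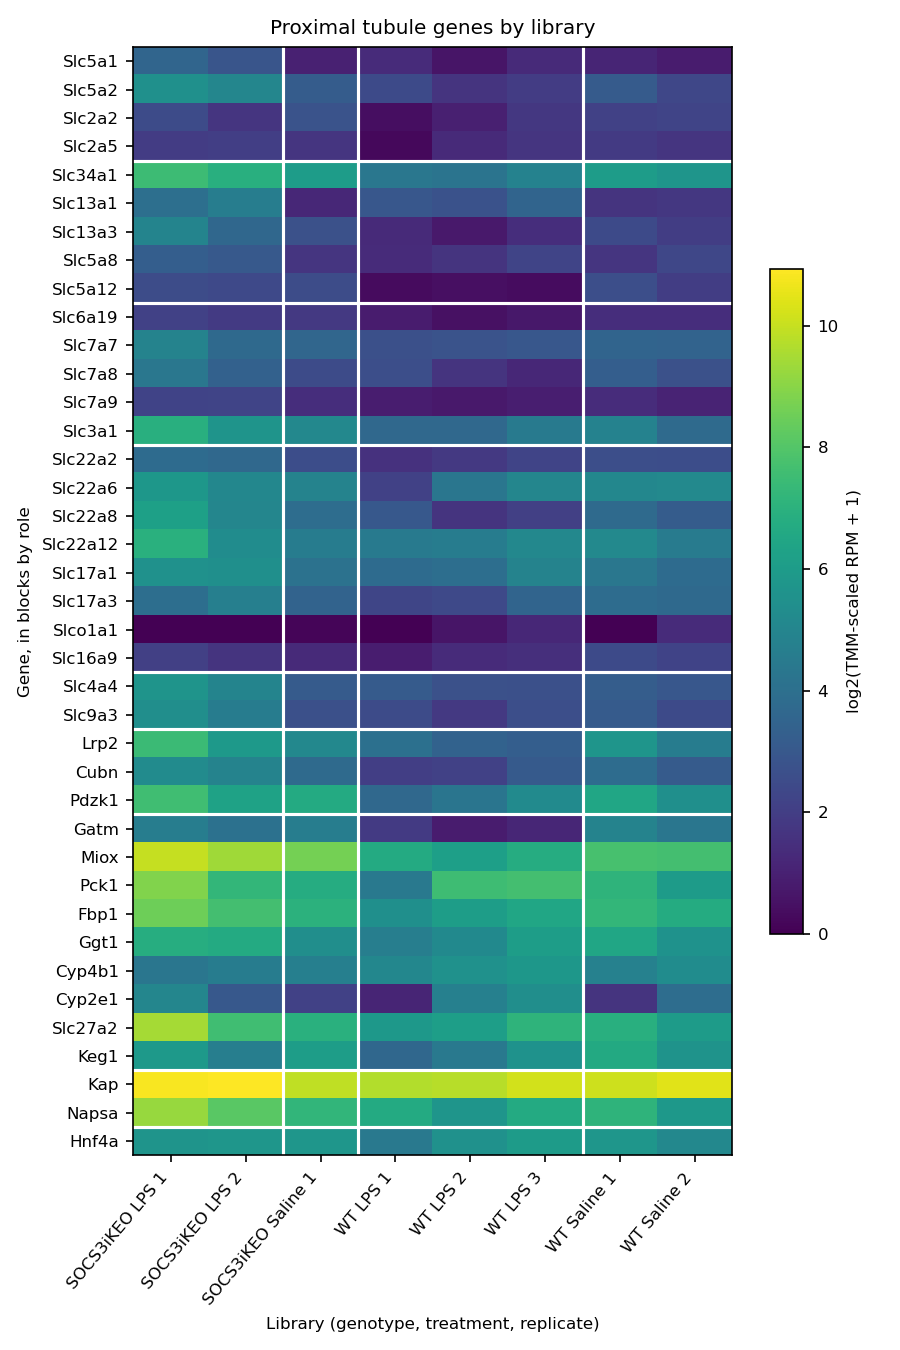
Level of each of the 39 genes, as log2(TMM-scaled RPM + 1), in each of the 8 libraries, with genes in blocks by role from sugar carriers at the top to the transcription factor Hnf4a at the bottom. Many rows are brightest in the 2 SOCS3iKEO LPS columns and darkest in the 3 WT LPS columns, whereas the rows of Cyp4b1, Slco1a1 and Hnf4a are not.

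All levels below are TMM-scaled RPM of 1 amplicon per gene, and fold changes are on the log2(scaled RPM + 1) scale, which understates the change of low genes. Levels are not per length, so genes are compared across libraries and not with each other. Among the 4 sugar carriers, 2 were called higher in SOCS3iKEO LPS. Slc5a2 (chr7:128265657-128272430) encodes SGLT2, the main glucose reabsorbing carrier of the early proximal tubule, and had 43.5 and 31.8 in the SOCS3iKEO LPS mice, 8.03 in the SOCS3iKEO saline mouse, 4.46, 2.08 and 2.80 in WT mice given LPS, and 7.78 and 3.98 in WT mice given saline. The log2 fold change of SOCS3iKEO LPS over WT LPS was 3.26 ± 0.35 (SE, adjusted p = 0.000184). Slc5a1 (chr5:33104219-33162870) encodes SGLT1, the high-affinity glucose carrier of later segments, and had 11.0 and 6.40 in the SOCS3iKEO LPS mice, 1.02 in the SOCS3iKEO saline mouse, 1.52, 0.555 and 1.44 in WT mice given LPS, and 1.17 and 0.807 in WT mice given saline. Its difference was 2.15 ± 0.31 (SE, adjusted p = 0.000722). For both genes the SOCS3iKEO LPS libraries stood above all others and the SOCS3iKEO saline library lay near WT saline. The facilitative carriers Slc2a2 (GLUT2) and Slc2a5 (GLUT5) were not called, at 1.02 ± 0.40 and 0.91 ± 0.39.

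All 5 phosphate, sulfate, carboxylate and lactate carriers were called higher in SOCS3iKEO LPS than in WT LPS. Slc34a1 (chr13:55398187-55415592) encodes NaPi-IIa, the main phosphate carrier of the proximal brush border, and had 183 and 117 in the SOCS3iKEO LPS mice, 64.8 in the SOCS3iKEO saline mouse, 19.1, 17.4 and 27.7 in WT mice given LPS, and 65.7 and 50.6 in WT mice given saline. The SOCS3iKEO LPS libraries were the highest and the WT LPS libraries the lowest, with a difference of 2.75 ± 0.28 (SE, adjusted p = 0.000148). Slc13a3 (chr2:165405028-165473230) encodes a sodium-coupled dicarboxylate carrier and had 29.9 and 11.6 in the SOCS3iKEO LPS mice, 5.54 in the SOCS3iKEO saline mouse, 1.43, 0.694 and 1.71 in WT mice given LPS, and 4.44 and 2.96 in WT mice given saline, a difference of 3.14 ± 0.40 (SE, adjusted p = 0.000382). Slc5a12 (chr2:110597298-110647779) encodes a low-affinity lactate carrier and had 4.77 and 4.30 in the SOCS3iKEO LPS mice, 4.75 in the SOCS3iKEO saline mouse, 0.253, 0.347 and 0.271 in WT mice given LPS, and 5.17 and 2.91 in WT mice given saline. Its WT LPS libraries held only 3 to 5 reads, at or near the floor, and the difference was 2.10 ± 0.26 (SE, adjusted p = 0.000345). The sulfate carrier Slc13a1 and the monocarboxylate carrier Slc5a8 differed by 1.23 ± 0.32 and 1.43 ± 0.33, and the call for Slc13a1 was lost without SOCS3iKEO LPS replicate 2.

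All 5 amino acid carriers were called higher in SOCS3iKEO LPS, with log2 differences of 1.31 to 2.30. Slc3a1 (chr17:85028376-85064236) encodes rBAT, the heavy chain of the cystine and dibasic amino acid carrier, and had 118 and 49.6 in the SOCS3iKEO LPS mice, 33.7 in the SOCS3iKEO saline mouse, 12.0, 12.1 and 21.9 in WT mice given LPS, and 27.7 and 12.6 in WT mice given saline. The difference was 2.30 ± 0.45 (SE, adjusted p = 0.00275). Slc7a8 (chr14:54722209-54781946), a light chain for neutral amino acids, had 19.1 and 9.61 in SOCS3iKEO LPS, against 5.14, 2.08 and 1.35 in WT LPS, and Slc7a7 (chr14:54369442-54417780), the y+LAT1 light chain of basolateral dibasic export, had 28.4 and 12.2 in SOCS3iKEO LPS, against 5.31, 5.97 and 6.94 in WT LPS. Both groups were separate for both genes, with differences of 2.04 ± 0.45 (SE, adjusted p = 0.00492) and 1.49 ± 0.34 (SE, adjusted p = 0.00616). Without SOCS3iKEO LPS replicate 1 the adjusted p of Slc7a8 was 0.0556.

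Of the 8 organic anion, cation and urate carriers, 5 were called higher in SOCS3iKEO LPS. Slc22a8 (chr19:8591254-8611835) encodes OAT3, which takes up organic anions from blood, and had 72.6 and 31.8 in the SOCS3iKEO LPS mice, 13.9 in the SOCS3iKEO saline mouse, 7.16, 2.15 and 3.25 in WT mice given LPS, and 12.7 and 8.13 in WT mice given saline. Its difference of 3.36 ± 0.46 (SE, adjusted p = 0.000532) was the largest of the 39 genes. Slc22a2 (chr17:12584132-12628488) encodes the organic cation carrier OCT2 and had 13.1 and 11.9 in SOCS3iKEO LPS, against 1.94, 2.50 and 3.70 in WT LPS, a difference of 1.89 ± 0.27 (SE, adjusted p = 0.000694). Slc22a12 (chr19:6535845-6543032) encodes the urate carrier URAT1 and had 122 and 38.8 in SOCS3iKEO LPS, against 20.8, 23.1 and 33.9 in WT LPS. Its groups lay close, the difference was 1.41 ± 0.44 (SE, adjusted p = 0.0248), and the call was lost without SOCS3iKEO LPS replicate 1 and without WT LPS replicate 1 or 2. Slc17a3 (chr13:23839434-23860716), an organic anion and urate exporter, had 14.7 and 25.4 in SOCS3iKEO LPS, against 3.87, 4.30 and 10.6 in WT LPS, a difference of 1.61 ± 0.40 (SE, adjusted p = 0.00932) that was lost without SOCS3iKEO LPS replicate 2. Slc17a1 was also called higher, at 1.25 ± 0.34. Slc22a6 (OAT1), Slc16a9 and Slco1a1 were not called, at 1.61 ± 0.69, 0.61 ± 0.28 and -0.62 ± 0.43.

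Both acid-base carriers were called higher. Slc4a4 (chr5:88886818-89239653) encodes NBCe1, the basolateral sodium bicarbonate cotransporter, and had 50.4 and 29.9 in the SOCS3iKEO LPS mice, 7.92 in the SOCS3iKEO saline mouse, 7.83, 5.55 and 5.41 in WT mice given LPS, and 8.44 and 6.89 in WT mice given saline. Slc9a3 (chr13:74121457-74169442) encodes NHE3, the apical sodium proton exchanger, and had 41.0 and 23.1 in the SOCS3iKEO LPS mice, 5.32 in the SOCS3iKEO saline mouse, 4.72, 2.57 and 5.14 in WT mice given LPS, and 7.89 and 4.47 in WT mice given saline. The SOCS3iKEO LPS libraries stood apart from the other 6 for both genes, with differences from WT LPS of 2.47 ± 0.30 (SE, adjusted p = 0.000297) and 2.67 ± 0.37 (SE, adjusted p = 0.000539).

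The endocytic receptors and their scaffold were called higher as well. Lrp2 (chr2:69424340-69586065), megalin, had 175 and 57.5 in the SOCS3iKEO LPS mice, 33.9 in the SOCS3iKEO saline mouse, 15.6, 9.79 and 8.75 in WT mice given LPS, and 51.2 and 22.9 in WT mice given saline, a difference between SOCS3iKEO LPS and WT LPS of 3.08 ± 0.49 (SE, adjusted p = 0.00106). Cubn (chr2:13276338-13491813), cubilin, had 37.3 and 28.3 in the SOCS3iKEO LPS mice, 12.7 in the SOCS3iKEO saline mouse, 3.12, 3.33 and 7.57 in WT mice given LPS, and 13.4 and 7.91 in WT mice given saline, a difference of 2.65 ± 0.38 (SE, adjusted p = 0.000615). Pdzk1 (chr3:96829284-96870926), a PDZ scaffold that anchors brush-border carriers, had 193 and 77.9 in the SOCS3iKEO LPS mice, 101 in the SOCS3iKEO saline mouse, 11.8, 18.0 and 36.8 in WT mice given LPS, and 87.3 and 42.5 in WT mice given saline. The difference for Pdzk1 was 2.56 ± 0.52 (SE, adjusted p = 0.00338), and the 2 SOCS3iKEO LPS libraries lay on either side of the SOCS3iKEO saline library.

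Among the 9 enzymes and lipid uptake proteins, 5 were higher and 1 was lower in SOCS3iKEO LPS. Miox (chr15:89334398-89337015), myo-inositol oxygenase, an enzyme largely restricted to the proximal tubule, had 1016 and 657 in the SOCS3iKEO LPS mice, 406 in the SOCS3iKEO saline mouse, 101, 71.4 and 107 in WT mice given LPS, and 216 and 206 in WT mice given saline, and its difference of 3.14 ± 0.25 (SE, adjusted p = 7.6e-05) had the smallest adjusted p of the 39. Gatm (chr2:122594467-122611303), which makes the creatine precursor guanidinoacetate, had 23.9 and 15.9 in the SOCS3iKEO LPS mice, 23.6 in the SOCS3iKEO saline mouse, 2.61, 0.763 and 1.26 in WT mice given LPS, and 28.9 and 18.6 in WT mice given saline. In SOCS3iKEO LPS one Gatm value lay within the range of the saline libraries and the other below it, and the difference from WT LPS was 3.07 ± 0.36 (SE, adjusted p = 0.000278). Slc27a2 (chr2:126552407-126588243), a very-long-chain fatty acid transporter and acyl-CoA synthetase, had 708 and 193 in the SOCS3iKEO LPS mice, 123 in the SOCS3iKEO saline mouse, 55.9, 69.7 and 137 in WT mice given LPS, and 120.2 and 63.2 in WT mice given saline, a difference of 2.17 ± 0.55 (SE, adjusted p = 0.00996) that was lost without SOCS3iKEO LPS replicate 1. Fbp1, the gluconeogenic fructose bisphosphatase, and Ggt1, the brush-border gamma-glutamyl transferase, differed by 2.08 ± 0.35 and 1.41 ± 0.40. The Ggt1 call was lost without SOCS3iKEO LPS replicate 1, SOCS3iKEO LPS replicate 2 or WT LPS replicate 2. Cyp4b1 (chr4:115624725-115647723), a monooxygenase whose kidney transcript is androgen-responsive in mice, had 18.6 and 23.4 in SOCS3iKEO LPS, against 32.3, 45.8 and 54.6 in WT LPS, and was the 1 gene called lower, at -1.02 ± 0.28 (SE, adjusted p = 0.0135). That call was lost without SOCS3iKEO LPS replicate 1 or WT LPS replicate 3. Pck1, the gluconeogenic PEP carboxykinase, Cyp2e1 and Keg1 were not called, at 1.50 ± 0.90, 0.25 ± 1.19 and 0.75 ± 0.56.

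Kap and Napsa were both called higher. Kap (chr6:133849851-133853762), kidney androgen regulated protein, a mouse proximal tubule transcript, had 1809 and 1961 in the SOCS3iKEO LPS mice, 953 in the SOCS3iKEO saline mouse, 825, 861 and 1181 in WT mice given LPS, and 1087 and 1390 in WT mice given saline, and Napsa (chr7:44572380-44586862), the lysosomal aspartic protease napsin A, had 605 and 285 in the SOCS3iKEO LPS mice, 148 in the SOCS3iKEO saline mouse, 101, 50.6 and 104 in WT mice given LPS, and 137 and 55.7 in WT mice given saline. SOCS3iKEO LPS stood above every other library for both, with differences from WT LPS of 1.00 ± 0.24 (SE, adjusted p = 0.00771) and 2.34 ± 0.46 (SE, adjusted p = 0.00309). On the deposited scale Kap differed by 0.43 with an adjusted p of 0.148, so its call depends on the scaling, and scaled to the other proximal tubule list its sign turned, to -0.86. The calls for Slc13a1, Slc22a12, Slc17a1 and Ggt1 were also lost on the deposited scale, at limma's adjusted p of 0.0865, 0.114, 0.106 and 0.0966.

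**Figure D3:**
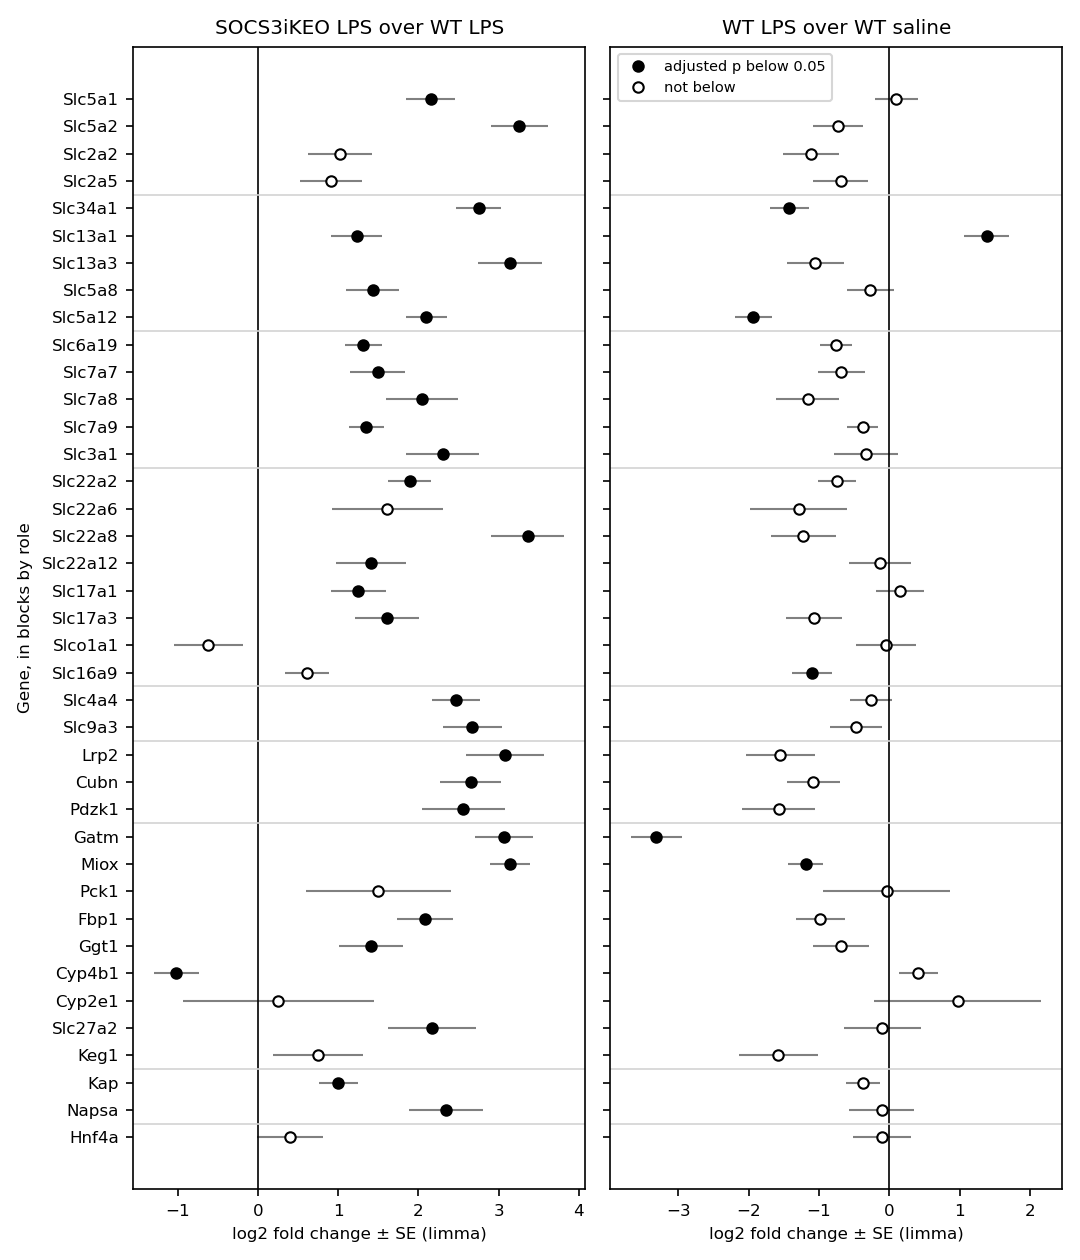
Log2 fold change with its standard error (limma, TMM-scaled RPM + 1) for each of the 39 genes in SOCS3iKEO LPS over WT LPS (left) and WT LPS over WT saline (right), with filled points where the adjusted p was below 0.05. On the left 29 genes are called higher and 1 lower, and on the right 5 are called lower and 1 higher.

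In WT mice few of these genes passed the threshold after LPS. Of the 39, 5 were called lower and 1 higher, against 8.79% lower and 6.85% higher over all amplicons tested, and the median was -0.69 against -0.02. After scaling, all 3 WT LPS libraries lay below both WT saline libraries for 20 genes and above them for 1. How many of all amplicons separated in this way was not counted. Gatm fell by the most, to 2.61, 0.763 and 1.26 scaled RPM in WT LPS, against 28.9 and 18.6 in WT saline, a log2 fold change of -3.31 ± 0.36 (SE, adjusted p = 0.000844). The WT LPS libraries held 31, 11 and 14 Gatm reads. The log2 fold change was -1.93 ± 0.26 (SE, adjusted p = 0.00238) for Slc5a12, -1.42 ± 0.28 (SE, adjusted p = 0.0108) for Slc34a1, -1.19 ± 0.25 (SE, adjusted p = 0.0149) for Miox and -1.10 ± 0.28 (SE, adjusted p = 0.0285) for Slc16a9, of the monocarboxylate carrier family. The sulfate carrier Slc13a1 was the only gene of the 39 called higher, with 6.91, 5.69 and 10.4 scaled RPM in WT LPS, against 2.11 and 2.37 in WT saline, and 1.38 ± 0.32 (SE, adjusted p = 0.02). Gatm and Slc5a12 kept their calls when any 1 library was left out. The Slc16a9 call was lost without any 1 of the 5 WT libraries, and Slc34a1, Miox and Slc13a1 lost theirs without either WT saline library. Without either of those libraries the count of genes called lower was 2, and without WT LPS replicate 3 it was 9 with Slc13a1 no longer called. On the deposited scale, where the median of all amplicons was -0.26, 17 were called lower and 1 higher, against 18.5% of amplicons lower. DESeq2 called 10 lower, a count given without a percent of all amplicons. In the other proximal tubule list 11 of 58 tested genes were lower and 0 higher, with a median of -0.71, and 5 of 7 loop genes and 4 of 7 principal cell genes were lower. Tubule injury genes moved beside them, with 4 of 7 higher, and their summed deposited level was 1259, 347 and 409 RPM in WT LPS, against 137 and 94.0 in WT saline. Their part in the fall was not tested.

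In SOCS3iKEO mice the LPS comparison rests on a single saline library. Of the 39 genes, 13 were called higher and 0 lower, against 20.2% higher and 23.9% lower over all amplicons, and the median was 1.16 against -0.08. The spread for the single saline library was taken from the other groups. Both edgeR and DESeq2 also called 0 lower, and 20 of the 39 had an unadjusted p below 0.05 in either direction. These counts are given without a percent of all amplicons. Slc13a1 had the largest difference, with 14.8 and 23.6 scaled RPM in SOCS3iKEO LPS, against 1.36 in SOCS3iKEO saline, a log2 fold change of 3.07 ± 0.42 (SE, adjusted p = 0.000772). Slc9a3 followed at 2.33 ± 0.49 (SE, adjusted p = 0.00535), Slc5a1 at 2.22 ± 0.42 (SE, adjusted p = 0.00326), Slc4a4 at 2.16 ± 0.40 (SE, adjusted p = 0.00286) and Slc5a2 at 2.08 ± 0.47 (SE, adjusted p = 0.00705). On the deposited scale, where the median of all amplicons was -0.73, 5 were called higher, against 9.51% of amplicons, and 2 lower, against 44.4%. The 2 called lower there were the glucose carrier Slc2a2 at -1.37 and Cyp4b1 at -1.08. The number called higher was 5 without SOCS3iKEO LPS replicate 1 and 6 without either WT saline library. Summed tubule injury genes were 1787 and 1626 deposited RPM in SOCS3iKEO LPS, against 137 in SOCS3iKEO saline, and all 7 were called higher. The list includes Vcam1, and the cells that gave the rise were not tested.

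After saline no difference between the genotypes was detectable in these genes. None of the 39 was called between SOCS3iKEO saline and WT saline by limma, edgeR or DESeq2, and of all amplicons tested limma called 0 (0%), edgeR 0 and DESeq2 4 higher and 1 lower. At an unadjusted p below 0.05 limma had 2 of the 39 and 423 of all amplicons. The median was 0.04, and the extremes were Slc16a9 at -1.03 ± 0.37 and Miox at 0.94 ± 0.34. This comparison also crosses the 2 runs of mouse numbers. With 1 SOCS3iKEO saline library it has wide errors, and a missed threshold does not show that the genotypes were alike.

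The LPS effect differed between genotypes for 17 of the 39 genes, all with the higher value in SOCS3iKEO, against 18.5% of amplicons called either way and 8.96% called higher. The median difference of the 2 effects was 1.72 on the log2 scale. Lrp2 had the largest, 3.09 ± 0.81 (SE, adjusted p = 0.0325), followed by Gatm at 3.05 ± 0.61 (SE, adjusted p = 0.0145) and Slc22a8 at 2.94 ± 0.77 (SE, adjusted p = 0.0323). SOCS3iKEO LPS and WT saline, which this term adds, make up one run of mouse numbers. SOCS3iKEO saline and WT LPS, which it subtracts, make up the other. The interaction therefore cannot be told apart from a difference between the runs. The interaction calls also share the single SOCS3iKEO saline library with the LPS comparison in SOCS3iKEO. The count was 0 without WT saline replicate 1, 6 without WT saline replicate 2 or WT LPS replicate 2, 8 without SOCS3iKEO LPS replicate 1 and 11 without WT LPS replicate 3.

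The genes did not all move in step. When libraries were scaled to the summed RPM of the other proximal tubule list, in place of TMM, the median of the 39 between SOCS3iKEO LPS and WT LPS was 0.24, with 9 called higher and 5 lower, against 2.94% of amplicons higher and 68.3% lower. With Dab2, an endocytic adaptor also expressed outside the tubule, removed from that list, a choice made after seeing the data, 5 were higher and 5 lower. The 5 called higher under both were Slc5a2, Slc13a3, Slc5a12, Slc22a8 and Gatm, with log2 differences on the full list of 1.59 ± 0.46, 1.64 ± 0.42, 1.00 ± 0.36, 1.67 ± 0.47 and 1.55 ± 0.47 (SE). The 5 called lower under both were Cyp4b1, Cyp2e1, Hnf4a, Keg1 and Slco1a1, at -2.76 ± 0.46, -1.40 ± 0.47, -1.40 ± 0.45, -1.03 ± 0.46 and -0.83 ± 0.28. By TMM, SOCS3iKEO LPS and WT LPS libraries overlapped for Cyp2e1, Hnf4a, Keg1 and Slco1a1. The SE of Cyp2e1 was 1.19 by TMM, so its call on the list scale does not reflect the gene's spread by TMM. Levels of Cyp4b1, Cyp2e1 and Slco1a1 also varied with the Y-linked reads, as given below. On the same scale LPS in WT gave 1 higher and 4 lower, against 8.25% and 5.54% of amplicons, with Gatm at -3.19 ± 0.47, Slc5a12 at -1.95 ± 0.36 and Slc13a1 at 1.74 ± 0.45, each called with and without Dab2.

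Ratios within a library need no scaling. Gatm reads per 100 Miox reads were 2.35 and 2.42 in the SOCS3iKEO LPS mice, 5.83 in the SOCS3iKEO saline mouse, 2.58, 1.07 and 1.18 in WT mice given LPS, and 13.4 and 9.03 in WT mice given saline. The LPS libraries of both genotypes were thus below all saline libraries. Slc13a1 reads per 100 Slc34a1 reads were 8.13 and 20.1 in the SOCS3iKEO LPS mice, 2.10 in the SOCS3iKEO saline mouse, 36.1, 32.8 and 37.5 in WT mice given LPS, and 3.22 and 4.68 in WT mice given saline. Every LPS library lay above every saline library, and WT LPS lay highest. Miox reads per 100 Kap reads were 56.2 and 33.5 in the SOCS3iKEO LPS mice, 42.6 in the SOCS3iKEO saline mouse, 12.2, 8.29 and 9.04 in WT mice given LPS, and 19.9 and 14.8 in WT mice given saline. That ratio separated the genotypes under both treatments. These ratios were chosen after seeing the values and carry no test.

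**Figure D4:**
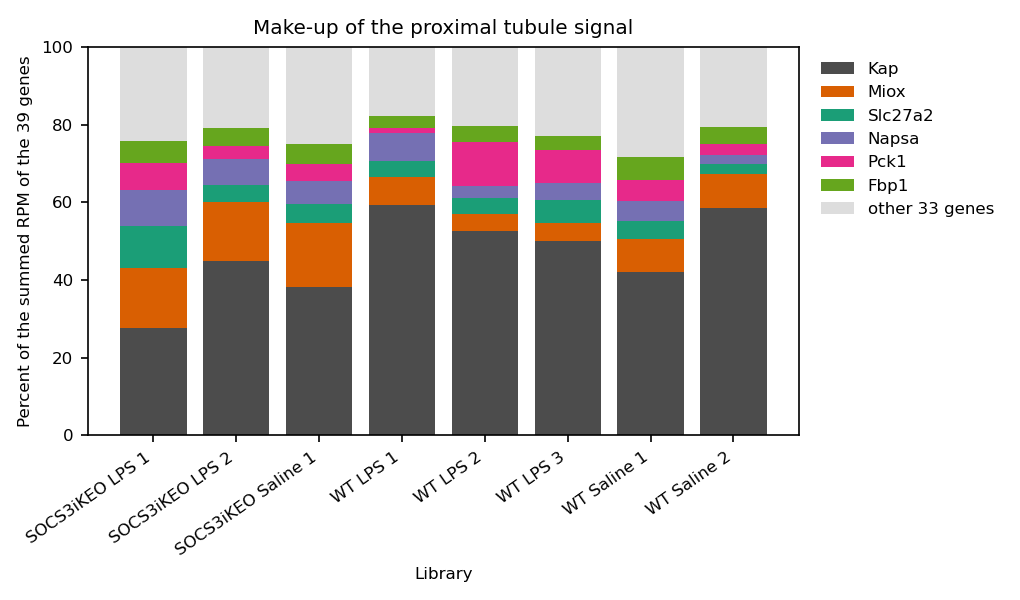
Percent of the summed RPM of the 39 genes taken by Kap, Miox, Slc27a2, Napsa, Pck1, Fbp1 and the other 33 genes in each library. Miox takes 15.5% and 15.1% in the SOCS3iKEO LPS mice and 16.3% in the SOCS3iKEO saline mouse, against 7.25%, 4.36% and 4.53% in WT mice given LPS and 8.37% and 8.66% in WT mice given saline.

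Slco1a1, Cyp2e1 and Cyp4b1 varied with the Y-linked reads within WT. Cyp4b1, the 1 gene called lower in SOCS3iKEO LPS, had 45.8 and 54.6 in WT LPS replicates 2 and 3 and 38.4 in WT saline replicate 2. In the 5 libraries without Y-linked reads it had 18.6 to 32.3. Slco1a1, an organic anion transporter that is male-biased in mouse kidney, had 0 and 0 in the SOCS3iKEO LPS mice, 0.113 in the SOCS3iKEO saline mouse, 0, 0.555 and 1.35 in WT mice given LPS, and 0 and 1.56 in WT mice given saline, and the 3 libraries with Y-linked reads were the 3 highest. Cyp2e1, an ethanol-oxidising monooxygenase, had 31.1 and 7.11 in the SOCS3iKEO LPS mice, 3.39 in the SOCS3iKEO saline mouse, 1.18, 26.4 and 40.9 in WT mice given LPS, and 2.17 and 14.2 in WT mice given saline. Among WT libraries Cyp2e1 was 26.4, 40.9 and 14.2 where Y-linked reads were present, against 1.18 and 2.17 where they numbered 1 to 3, while SOCS3iKEO LPS replicate 1, without Y-linked reads, had 31.1. The part of sex in this was not tested. Pck1 and Slc22a6 were lowest in WT LPS replicate 1, at 20.3 and 3.37 scaled RPM, the 1 WT LPS library without Y-linked reads. In WT saline the order was the opposite for Pck1, at 138.7 in the library without Y-linked reads and 63.9 in the one with them, and Slc22a6 lay close in both, at 32.2 and 34.8. With the Y-linked reads as a term in the fit, 32 of the 39 genes were higher and 0 lower in SOCS3iKEO LPS than in WT LPS. These counts are given without a percent of all amplicons, and the call for Cyp4b1 was lost.

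**Figure D5:**
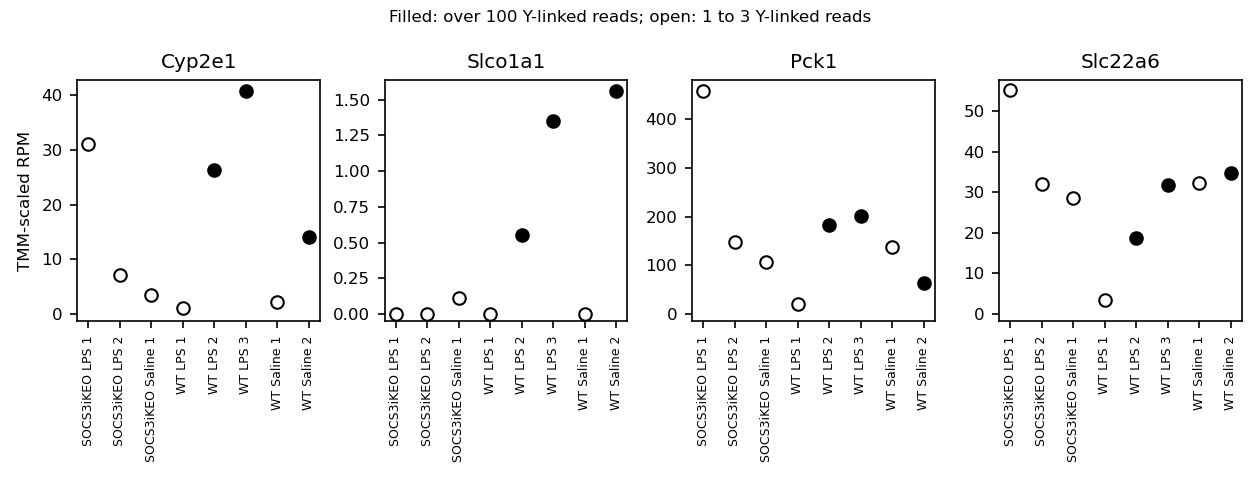
TMM-scaled RPM of Cyp2e1, Slco1a1, Pck1 and Slc22a6 in each library, with filled points for the 3 libraries that hold over 100 Y-linked reads and open points for the 5 that hold 1 to 3. Slco1a1 is above 0.5 in the filled libraries only, and Pck1 and Slc22a6 are lowest in WT LPS replicate 1.

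Hnf4a (chr2:163506808-163572910), a nuclear receptor that sets the proximal tubule programme in mice, had 50.4 and 53.1 in the SOCS3iKEO LPS mice, 52.6 in the SOCS3iKEO saline mouse, 20.3, 45.7 and 63.1 in WT mice given LPS, and 52.2 and 33.7 in WT mice given saline. The groups overlapped, and SOCS3iKEO LPS differed from WT LPS by 0.40 ± 0.41 (SE, adjusted p = 0.44), which was not called. Promoter windows were searched for short motifs of tubule transcription factors, as a description of sequence alone. RefSeq windows of 250 bases before to 50 after the transcript start were available for 35 of the 39 genes (47 windows, GRCm38.p6), with none used for Slc13a1, Napsa, Slc5a2 or Slc5a12. The HNF1 motif GTTAAT, on either strand, lay in 8 of the 47 windows (17.0%) and in 7.10% of all 32851 windows of the same length. The HNF4 motif CAAAGTCCA, on either strand, lay in 2 of the 47 (4.26%), those of Pdzk1 and Slc3a1, and in 0.475% of all windows. The 200 bases before the start are shown for 3 genes called higher in SOCS3iKEO LPS that hold the HNF1 motif, and for Hnf4a, which was not called and holds it as well, so that its presence can be read beside different outcomes. Capitals mark GTTAAT or its reverse complement.
Slc34a1 (chr13:55399448-55399647, plus strand): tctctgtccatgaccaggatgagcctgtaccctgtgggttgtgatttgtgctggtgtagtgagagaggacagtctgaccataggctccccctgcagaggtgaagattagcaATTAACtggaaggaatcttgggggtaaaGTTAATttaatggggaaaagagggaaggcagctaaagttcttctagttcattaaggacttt
Miox (chr15:89334273-89334472, plus strand): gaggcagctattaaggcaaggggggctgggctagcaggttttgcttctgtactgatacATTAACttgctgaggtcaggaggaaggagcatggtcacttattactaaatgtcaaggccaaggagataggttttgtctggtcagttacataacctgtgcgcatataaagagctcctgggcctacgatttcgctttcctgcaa
Slc22a8 (chr19:8592982-8593181, plus strand): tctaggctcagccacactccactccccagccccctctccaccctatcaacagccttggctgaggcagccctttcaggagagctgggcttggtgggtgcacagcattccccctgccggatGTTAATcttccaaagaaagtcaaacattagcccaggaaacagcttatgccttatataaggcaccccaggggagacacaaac
Hnf4a (chr2:163546955-163547154, plus strand): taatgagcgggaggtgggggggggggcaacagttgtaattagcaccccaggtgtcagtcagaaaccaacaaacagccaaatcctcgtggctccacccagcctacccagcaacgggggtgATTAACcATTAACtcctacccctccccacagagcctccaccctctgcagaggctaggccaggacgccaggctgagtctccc
Slc34a1 and Hnf4a each hold the HNF1 motif at 2 places in this stretch, and Miox and Slc22a8 at 1. A match of these letters is not a bound site, and no binding was measured here.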

How the data were processed

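Per the labels' protocols, kidneys were minced and lysed in Trizol, and libraries were made with a targeted Ion AmpliSeq mouse transcriptome kit. The submitters' processing notes name mm10 and the Transcriptome Analysis Console without a role, and the sources used here do not give an aligner or counter. Deposited values are RPM per amplicon, and the authors divided each amplicon's reads by the library total with no further scaling, as the values show. All values (100%) were whole multiples of 1 read within 0.1 read, so reads were recovered. In 27 rows a date stood in place of the gene name, which was restored from the amplicon identifier.

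The test was limma 3.58.1 (R 4.3.3) with a trended prior on log2(TMM-scaled RPM + 1), over 12820 amplicons kept by filterByExpr (minimum count 10, total 15). A single model with 4 group means was fitted to the 8 libraries, and the spread of the lone SOCS3iKEO saline library was assumed to equal that of the other groups. Adjusted p values are Benjamini-Hochberg over all amplicons tested, with a threshold of 0.05. Replicates are separate mice by their labels. Genes were named by role, as the highest mean and up to 3 with the largest called change. The members and lists were chosen with earlier results of these data known. The fit was tested on simulated data. Alternatives were edgeR 4.0.16 and DESeq2 1.42.0 on recovered reads, other scalings, filters and pseudocounts, a Y-linked term and leaving out each library. Gene bounds are GENCODE M21 (mm10). Slc22a28, Slc1a1, Ass1, Sord, Glyctk, Avpr2, Tagln and Cd79a of the marker lists were not analysed here.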

Additional observations from a re-analysis of the deposited data

Results flagged for a closer look

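For 15 named genes the log2 effect of LPS differed between the genotypes by limma's interaction term, SOCS3iKEO minus WT, with an adjusted p below 0.05. The differences were 2.81 for Slc5a2, 2.12 for Slc5a1, 2.58 for Slc34a1, 2.65 for Slc13a3, 1.87 for Slc5a12, 2.54 for Slc7a8, 2.94 for Slc22a8, 1.91 for Slc22a2, 2.42 for Slc4a4, 2.81 for Slc9a3, 3.09 for Lrp2, 2.38 for Cubn, 2.20 for Miox, 3.05 for Gatm and 1.36 for Kap. All 15 rest on the single SOCS3iKEO saline library, and none kept its call when WT saline replicate 1 was left out. Scaled to the other proximal tubule list, none of the 15 was called and Kap turned to -0.49. The interaction also cannot be told apart from the 2 runs of mouse numbers.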

How the results depend on the processing

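Counts are of the 39 genes and are given here without the percent of all amplicons. For SOCS3iKEO against WT after LPS (29 higher, 1 lower), scaling to the other proximal tubule list gave 9 higher and 5 lower, and without Dab2 in it, chosen after seeing the data, 5 and 5. A Y-linked term gave 0 lower. Leaving out 1 library gave 24 to 32 higher and 0 to 1 lower. For LPS in WT (1 higher, 5 lower), RPM as deposited gave 17 lower, DESeq2 10, the 5 WT libraries alone 8, the list without Dab2 2, and no filter or a pseudocount of 10 each 0 higher. Leaving out 1 library gave 2 to 9 lower and 0 to 1 higher. For LPS in SOCS3iKEO (13 higher, 0 lower), RPM as deposited gave 5 higher and 2 lower, the other list 1 and 6, that list without Dab2 1 and 2, no filter 5 higher and DESeq2 20 higher. Leaving out 1 library gave 5 to 18 higher and 0 lower. For the interaction (17, all higher), RPM as deposited gave 11 and no filter 2, all higher, and both list scalings gave 0 higher and 1 lower, Cyp4b1 at -2.42 and, without Dab2, -2.70. Leaving out 1 library gave 0 to 19. Without the single SOCS3iKEO saline library the comparisons that need it could not be fitted. The cause of these shifts was not tested.

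Called values of the named genes turned sign only under the list scalings, given here on the full list and then without Dab2. Values that were not called also turned on the deposited scale, such as Pdzk1 for LPS in SOCS3iKEO, at 0.28 by TMM and -0.57 as deposited. After LPS, SOCS3iKEO against WT gave -0.20 and -0.49 for Slc7a7, -0.40 and -0.71 for Slc22a12, -0.05 and -0.33 for Slc17a3, and -0.86 and -1.17 for Kap. LPS in SOCS3iKEO gave -0.49 and -0.40 for Miox, -0.52 and -0.42 for Kap, -0.32 and -0.23 for Slc34a1, and -0.14 and -0.06 for Slc22a2. The interaction gave -0.49 and -0.78 for Kap. Of the called values of named genes, 17 of 22 for SOCS3iKEO against WT after LPS, 2 of 4 for LPS in WT, 4 of 10 for LPS in SOCS3iKEO and 0 of 15 for the interaction kept their call under every alternative other than the list scalings. Depth limits genes near 3 reads, such as Slc5a12 in WT LPS.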

Other observations

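The order of the 39 genes by level was broadly alike in all libraries. Mean levels ran from 0.506 deposited RPM for Slco1a1 to 1229 for Kap, and so wide a range keeps rank correlations high whatever the groups do. The lowest Spearman's rho was 0.807, for WT LPS replicate 3 with SOCS3iKEO LPS replicate 1 and with WT saline replicate 1. Spearman's rho across the genes, which are not independent replicates, was 0.951 between the SOCS3iKEO LPS libraries, 0.952 between the WT saline libraries and 0.983 between WT LPS replicates 2 and 3. WT LPS replicate 1 had 0.880 and 0.849 with the other WT LPS libraries, and 0.917 with SOCS3iKEO LPS replicate 2. The SOCS3iKEO saline library had 0.973 with WT saline replicate 1. Summed tubule injury genes were also higher in WT LPS replicate 1, at 1259 RPM, than in WT LPS replicates 2 and 3, at 347 and 409 RPM.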
